A study of Mus musculus with 24 samples.

Results

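The inflammatory monocyte genes described here are a list of 10 genes expressed by Ly6C-high, or classical, monocytes and the macrophages that arise from them. Not all are confined to these cells, and Tyrobp, Fcer1g, Lyz2 and Itgb2 are also expressed by neutrophils. The name is that of the list, and the cell source of the RNA was not tested. The 10 genes were taken by symbol from a count table of plasma extracellular vesicle RNA. All 10 of 10 symbols were found among its 21960 genes. They are the chemokine receptor Ccr2, the signalling adaptors Tyrobp and Fcer1g, the growth factor receptor Csf1r, the lysosomal enzymes Lyz2 and Ctss, the surface antigens Ly6c2 and Cd14, the lysosomal glycoprotein Cd68 and the integrin subunit Itgb2. Of these, 7 passed the filter on low counts that left 4112 genes for testing, while Ly6c2, Cd14 and Cd68 did not.

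Classical monocytes leave the bone marrow through the receptor CCR2, which binds the chemokine CCL2, and enter injured tissue from the blood. In mouse liver they are the circulating source of infiltrating macrophages during fibrosis. TYROBP (DAP12) and the Fc receptor gamma chain encoded by Fcer1g pass signals from many myeloid surface receptors through the kinase SYK, and the beta2 integrins that contain ITGB2 hold leukocytes to the vessel wall. Many cell types release membrane-bound vesicles into plasma, and part of the cell's RNA travels with them.

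Plasma was drawn from male C57BL/6J mice, an inbred strain, in 4 groups of 6: 8 days after bile duct ligation (BDL), 8 days after sham surgery, 15 days after BDL and 15 days after sham surgery. Ligation stops the flow of bile and leads to cholestasis and liver fibrosis. No genetic change is given in the labels, and the age of the mice is not given there. The tissue label reads liver, whereas the protocol describes vesicles precipitated from plasma, and the data are treated here as RNA of plasma vesicles. The labels number the samples within a group and do not state outright that each came from a separate mouse, so p-values measure the spread between these samples. A higher level in such bulk RNA can come from more vesicles of a cell type, from more RNA of the gene per vesicle or from other sources. These cannot be told apart.

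Library totals at day 8 were 167939 to 937963 counts in the ligated group and 101733 to 824640 counts in the sham group. Those of day 15 were 315404 to 465744 counts in the ligated group and 157133 to 351201 counts in the sham group. The 10 genes together held 62 to 1029 counts of a library, a median of 0.0633% of all counts (n = 24). Day 8 libraries with the numbers 4, 5 and 6 held more counts than those with the numbers 1, 2 and 3, in ligated and sham mice alike. The library of ligated sample 3 at day 8 stood apart in its share of Lars2, the most abundant gene of the table, with 31.6% against a median of 48.0% over all 24 libraries. Calls that ended, and counts that moved most, when it was left out are given beside the result (for the marker and pathway lists, a step added after seeing the data).

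The genes lie on 8 chromosomes of GRCm38 (GENCODE M21 annotation, matched by Ensembl identifier) and all are protein-coding. Ccr2 (ENSMUSG00000049103) spans chr9:124101950-124113557 on the plus strand, Tyrobp (ENSMUSG00000030579) chr7:30413760-30417585 on the plus strand and Itgb2 (ENSMUSG00000000290) chr10:77530252-77565708 on the plus strand. Csf1r overlaps Hmgxb3 on the opposite strand, and Ctss overlaps a processed pseudogene, Hmgb1-ps5. The kit marks strand, but no source used here says how strand entered the counting, so counts of these genes are uncertain in that respect. Promoter windows of 300 bases, from 250 before to 50 after a transcription start (RefSeq, GRCm38.p6), were found for 6 of the 10 genes in 7 windows. They were searched on both strands for GAGGAA, the core bound by the myeloid factor PU.1, and for TTGCGCAA, a C/EBP palindrome, which do not overlap each other as motifs. GAGGAA was present in 4 of the 7 windows, those of Ctss, Cd68 and Ly6c2 (which has 2 overlapping windows), and in 28.3% of all 32851 windows. TTGCGCAA was present in none of the 7 and in 0.183% of all. The window of Ccr2 is shown because Ccr2 was the member that passed the test on both days, and that of Ctss as a member whose window holds GAGGAA. Capitals mark GAGGAA or its reverse complement, and a match is no more than a match of letters.
Ccr2, chr9:124101933-124102232, plus strand: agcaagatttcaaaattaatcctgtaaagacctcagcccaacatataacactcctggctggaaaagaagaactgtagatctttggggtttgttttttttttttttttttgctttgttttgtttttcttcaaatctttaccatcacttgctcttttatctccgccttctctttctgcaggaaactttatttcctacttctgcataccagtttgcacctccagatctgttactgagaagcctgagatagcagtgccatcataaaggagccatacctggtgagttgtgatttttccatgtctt
Ctss, chr3:95526536-95526835, plus strand: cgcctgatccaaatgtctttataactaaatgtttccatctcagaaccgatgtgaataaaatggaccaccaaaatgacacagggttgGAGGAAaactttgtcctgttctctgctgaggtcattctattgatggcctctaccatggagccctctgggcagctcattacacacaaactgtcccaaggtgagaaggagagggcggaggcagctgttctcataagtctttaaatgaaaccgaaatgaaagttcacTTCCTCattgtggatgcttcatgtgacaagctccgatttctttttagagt

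**Figure D1:**
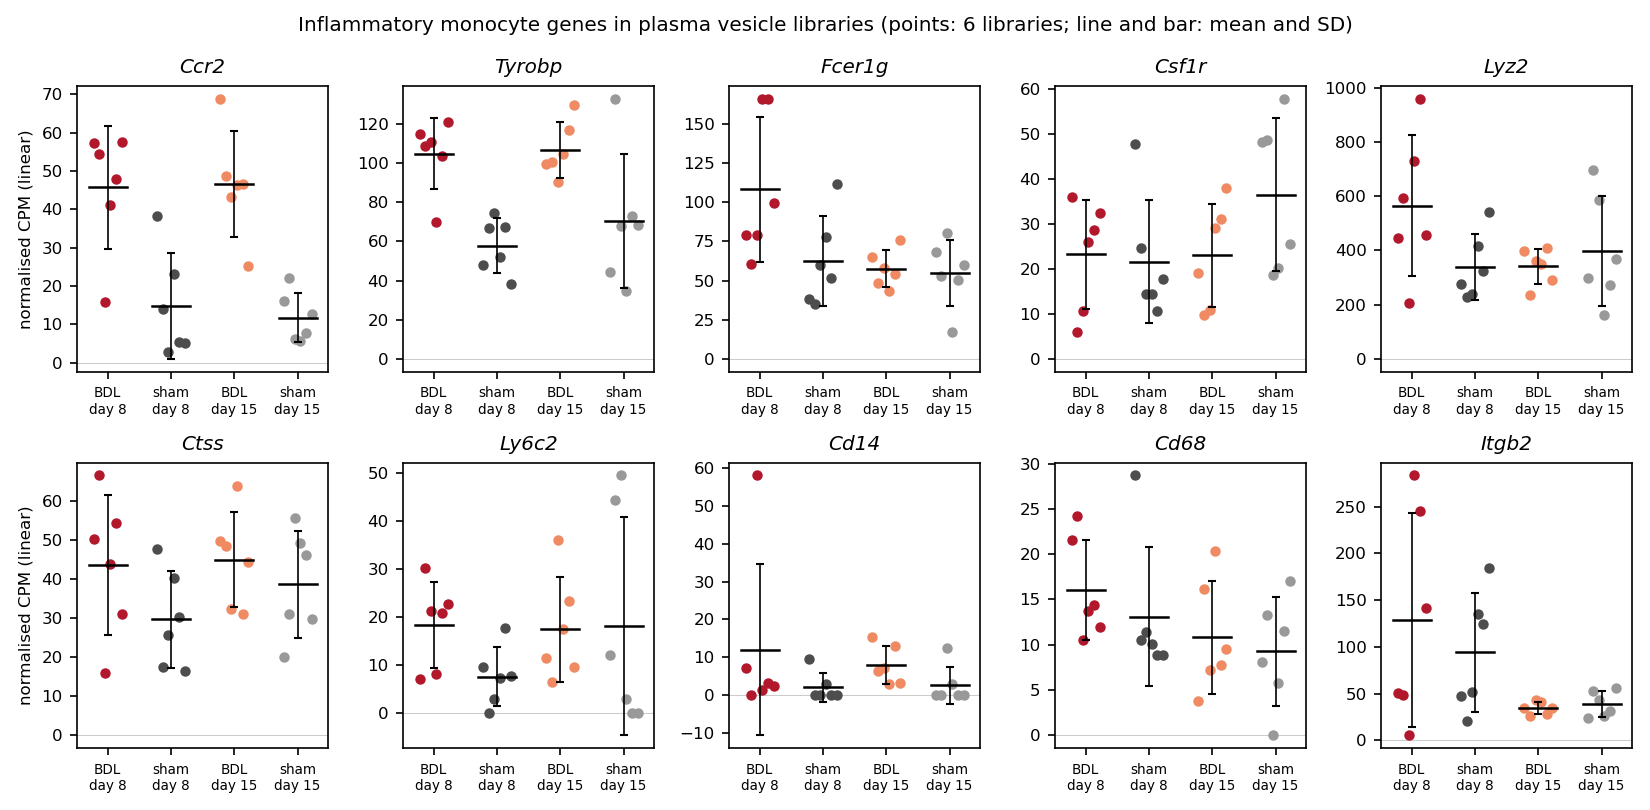
Normalised CPM (counts scaled to the TMM-adjusted library size, linear axis) of the 10 genes in the 4 groups, 1 point per library, with the mean as a line and the SD as a bar (n = 6). Ccr2 sits between 25.3 and 68.8 in the ligated libraries of day 15, above every sham library of that day.

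Ccr2 RNA was more abundant after ligation than after sham surgery on both days, by close to the same factor. Levels are given as normalised CPM, the counts divided by the TMM-scaled library size and expressed as CPM. At day 8 Ccr2 had 15.8, 51.2 and 57.5 CPM as the lowest, median and highest of the ligated libraries, against 2.86, 9.71 and 38.2 CPM in the sham libraries. There 5 of 6 ligated libraries were above the highest sham library, ligated library 3 being the exception. On day 15 the values were 25.3, 46.6 and 68.8 CPM in the ligated libraries, against 5.79, 10.3 and 22.1 CPM in the sham libraries. At day 15 the groups did not overlap, which was also true, with ligated above sham, of 2.38% of all genes tested.

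The log2 fold change of Ccr2, ligated over sham, was 1.94 (SE 0.40, adjusted p = 0.00757, edgeR quasi-likelihood test over all genes) at day 8, a 3.83-fold difference. At day 15 it was 1.96 (SE 0.44, adjusted p = 0.00686), a 3.90-fold difference. Averaged over both days it was 1.95 (SE 0.30, adjusted p = 4.57e-05). The call was kept when any 1 library was left out on either day, with adjusted p of up to 0.0345 at day 8 and up to 0.0261 at day 15. Without ligated library 3, the log2 fold change at day 8 was 2.05 (adjusted p = 0.00484). Within the day 8 libraries numbered 1 to 3 it was 1.56 (adjusted p = 0.351) and within those numbered 4 to 6 it was 2.05 (adjusted p = 0.0751), so the direction was the same in both while neither passed the test on 3 libraries a group. Both groups rested on few counts, with 128 counts in the ligated and 32 in the sham libraries of day 8, and 87 in the ligated and 17 in the sham libraries of day 15.

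Set against the 10 genes' own counts, the same Ccr2 counts made up a larger median share after ligation. Its share was 2.92%, 4.23% and 6.61% (lowest, median, highest) in the ligated and 0.546%, 1.90% and 6.45% in the sham libraries at day 8. At day 15 it was 3.83%, 6.38% and 9% in the ligated and 0.671%, 1.89% and 2.99% in the sham libraries, again without overlap. These shares rest on the Ccr2 counts already described and are no separate evidence. Lyz2 held the most counts of the 10 genes. How often such shares of other genes separate the groups was not computed. The ligation effect on Ccr2 did not pass the test of a difference between days (0.02 on the log2 scale, 95% interval -1.29 to 1.34, adjusted p = 1.00, edgeR). That interval is wide enough to hold a difference of more than 1 on the log2 scale in either direction.

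Of the 7 tested members, 2 were called higher after ligation at day 8 (Ccr2 and Tyrobp), where 2.77% of all genes tested were. At day 15 it was 1 of 7 (Ccr2), against 3.48% of all, and for the average of both days 2 of 7 (Ccr2 and Tyrobp), against 7.1% of all. None was called lower on any of these comparisons, against 0.365% of all genes at day 8, 1.07% at day 15 and 3.5% for the average, so calls in either direction made up 3.14%, 4.55% and 10.6% of all genes. With the library number as a block within day, the same members were called, while over all genes 169 were called higher and 33 lower at day 8. The median log2 fold change of the 7 was 0.74 at day 8 and 0.11 at day 15, against 0.02 and -0.02 over all genes tested. The 7 come from a list chosen with earlier results of these data known. These shares and medians therefore describe the list and are no test of monocyte genes. Scaling by total counts alone shifted the median of all genes to -0.25 at day 8 and -0.22 at day 15, and the calls over all genes were then 56 higher and 77 lower at day 8, where TMM gave 114 higher and 15 lower, and 115 higher and 172 lower at day 15, where TMM gave 143 higher and 44 lower. For the average of both days they were 185 higher and 621 lower, where TMM gave 292 higher and 144 lower. Under that scaling Ccr2 was still called, at 1.67 at day 8 and 1.77 at day 15 on the log2 scale.

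**Figure D2:**
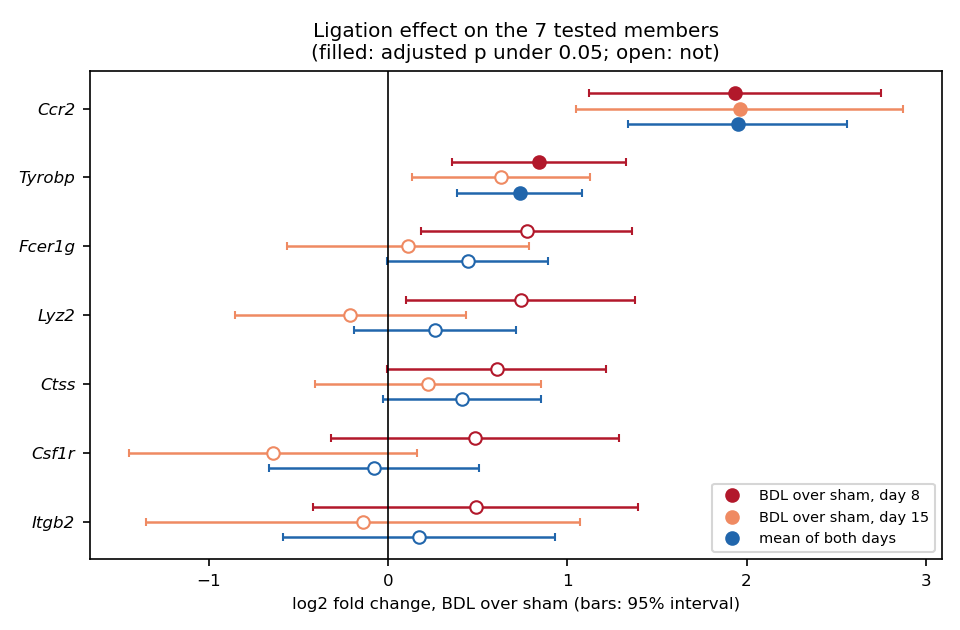
Log2 fold change of the 7 tested members, BDL over sham, for day 8, for day 15 and for their average, with 95% intervals, filled where the adjusted p was under 0.05. Ccr2 lies near 2 in all 3 comparisons, whereas the other members lie closer to 0 at day 15 than at day 8 or, for Lyz2, Csf1r and Itgb2, on the other side of 0.

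Tyrobp, the adaptor DAP12 of myeloid and natural killer cell receptors, was higher after ligation with less spread between libraries than Ccr2. At day 8 it had 69.9, 110 and 121 CPM (lowest, median, highest) in the ligated libraries, against 38.2, 59.4 and 74.4 CPM in the sham libraries. By day 15 the values were 90.2, 102 and 130 CPM in the ligated libraries, against 34.7, 68.2 and 133 CPM in the sham libraries. Only ligated library 4 at day 8 and sham library 2 at day 15 brought the groups into overlap. The log2 fold change was 0.84 (SE 0.24, adjusted p = 0.0485, edgeR) at day 8 and 0.63 (SE 0.24, adjusted p = 0.141) at day 15. The average of the 2 days was 0.74 (SE 0.17, adjusted p = 0.00493). The day 8 call ended in 11 of 12 refits that left out 1 library, all but the one without ligated library 4, with log2 fold changes of 0.72 to 0.95 over the 12 (0.81, adjusted p = 0.0783, without ligated library 3). It also ended with scaling by total counts (0.54, adjusted p = 0.159). At day 15 Tyrobp was called without sham library 2 (0.91, adjusted p = 0.0126). The call for the average of both days was kept in 24 of 24 such refits.

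Of the receptors and kinases that signal through TYROBP or the Fc receptor gamma chain, 4 of 16 in the table were tested. Fcgr3, a low-affinity Fc receptor of myeloid cells, rose after ligation averaged over both days (0.82, SE 0.27, adjusted p = 0.0453, edgeR), as 1 of 4 tested, with a list median of 0.03 against 0.00 over all genes. Without ligated library 3 of day 8 it did not pass (0.79, adjusted p = 0.0628). None of the 4 passed at a single day, where the list medians were 0.26 at day 8 and -0.20 at day 15. Syk, the kinase downstream of both adaptors, had log2 fold changes of -0.32 at day 8 and -0.76 at day 15 and did not pass on either day.

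Fcer1g, the signalling gamma chain shared by Fc receptors, did not pass the test on either day. At day 8 it had 60.5, 89.3 and 166 CPM in the ligated libraries, against 35.2, 55.8 and 112 CPM in the sham libraries, and 2 of 6 ligated libraries were above the highest sham library. Values at day 15 were 43.5, 56.1 and 76.0 CPM in the ligated libraries, against 17.4, 56.5 and 80.3 CPM in the sham libraries, so the groups overlapped throughout. Its log2 fold change was 0.77 (SE 0.29, adjusted p = 0.174) at day 8 and 0.11 (SE 0.33, adjusted p = 0.899) at day 15. Without ligated library 3, none of Fcer1g (0.83), Lyz2 (0.89), Ctss (0.71), Csf1r (0.58) and Itgb2 (0.69) passed at day 8 either, with adjusted p of 0.0989 or more. Leaving out sham library 6 brought the day 8 value past the threshold (1.04, adjusted p = 0.0462).

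Lyz2, the lysozyme of monocytes, macrophages and neutrophils, was the most abundant of the 10 per kilobase of exon, at 311 CPM per kilobase averaged over 24 libraries (SD 145). At day 8 it had 206, 525 and 958 CPM in the ligated libraries, against 229, 300 and 542 CPM in the sham libraries. Day 15 values were 236, 354 and 410 CPM in the ligated libraries, against 162, 333 and 695 CPM in the sham libraries. The ranges overlapped on both days, and the log2 fold change was 0.74 (SE 0.31, adjusted p = 0.249) at day 8 and -0.21 (SE 0.31, adjusted p = 0.781) at day 15. Its near copy Lyz1 had 3 counts in the ligated and 8 in the sham libraries at day 8, and 1 count in the ligated and 2 in the sham libraries at day 15, so few reads were assigned to that gene.

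Ctss, the gene of cathepsin S, a protease of antigen-presenting cells, had 15.8, 47.0 and 66.6 CPM in the ligated and 16.5, 27.995 and 47.8 CPM in the sham libraries at day 8. On day 15 the values were 31.1, 46.5 and 63.8 CPM in the ligated and 20.1, 38.6 and 55.6 CPM in the sham libraries. The groups overlapped, with log2 fold changes of 0.61 (SE 0.30, adjusted p = 0.355) and 0.22 (SE 0.31, adjusted p = 0.763). Of 12 other lysosome and cathepsin genes 10 were tested, and 3 rose for the average of both days, with a list median of 0.31 against 0.00 over all genes. These were Lamp2 (0.97, SE 0.23, adjusted p = 0.00726, edgeR) and Lamp1 (0.64, SE 0.16, adjusted p = 0.0112), which encode lysosomal membrane proteins, and the protease gene Ctsl (1.08, SE 0.32, adjusted p = 0.0313). Without ligated library 3 of day 8, Ctsl did not pass (0.86, adjusted p = 0.0641). None of the 10 passed at a single day (medians 0.47 at day 8 and 0.05 at day 15).

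Csf1r, the receptor of the macrophage growth factors CSF1 and IL34, gave values of opposite sign on the 2 days, neither past the threshold. At day 8 it had 6.05, 27.4 and 35.9 CPM in the ligated libraries, against 10.7, 16.1 and 47.8 CPM in the sham libraries. By day 15 the values were 9.72, 24.1 and 38.0 CPM in the ligated libraries, against 18.5, 37.0 and 57.8 CPM in the sham libraries. The log2 fold change was 0.49 (SE 0.39, adjusted p = 0.608) at day 8 and -0.64 (SE 0.39, adjusted p = 0.415) at day 15. The difference between the days was -1.13 (95% interval -2.27 to 0.01, adjusted p = 0.841), and that of Lyz2 was -0.95 (95% interval -1.86 to -0.04, adjusted p = 0.841). Over the 7 members the edgeR test of that difference called 0, as it did 0% of all genes tested, with 1 member at an unadjusted p under 0.05 and 0 called by DESeq2.

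Itgb2, the shared beta chain of the leukocyte integrins, had 5.28, 95.8 and 284 CPM in the ligated and 21.1, 88.0 and 184 CPM in the sham libraries at day 8. Values at day 15 were 25.9, 34.6 and 43.3 CPM in the ligated and 24.1, 37.0 and 55.5 CPM in the sham libraries. The day 8 groups each covered a wide range, while at day 15 the values lay close together in both. The log2 fold change was 0.49 (SE 0.44, adjusted p = 0.665) at day 8 and -0.14 (SE 0.59, adjusted p = 0.936) at day 15. Of the integrin alpha chains and partners of this subunit 3 of 8 were tested (Itgal, Fermt3 and Tln1), and none passed for ligation, with medians of 0.29 at day 8, -0.15 at day 15 and 0.20 for the average. When ligated library 3 was left out, Itgam, the alpha chain of Mac-1, entered the fit and rose at day 8 (1.58, adjusted p = 0.0496, edgeR).

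The 3 members below the filter were left out of the fit across all genes. Their log2(CPM + 1), here with CPM of the total counts and not of the TMM-scaled library size, was compared on each day with an exact permutation test (two-sided, 6 tests in all, unadjusted). Cd14, the lipopolysaccharide co-receptor, had 1, 2 and 5 counts (lowest, median, highest) in the ligated libraries of day 15, against 0, 0 and 2 counts in the sham libraries. A Cd14 count was present in 6 of 6 ligated and 2 of 6 sham libraries of that day, with 15 counts against 3, a ratio of normalised counts of 3.90 (95% exact interval 1.10 to 21.0, counting error only) and a permutation p of 0.0498. That p missed the threshold with a pseudocount of 5 (0.102) and in 8 of the 12 repeats without 1 library of day 15. At day 8 Cd14 had 17 counts in the ligated and 3 in the sham libraries (exact permutation p = 0.232), and 11 of the 17 came from ligated library 3, without which the p was 0.448. In the edgeR fit without a filter, Cd14 passed for the average of both days (2.16, adjusted p = 0.0210), where 817 of 18710 genes were called higher and 224 lower. That fit was not repeated without ligated library 3 of day 8. In it, Cd14 did not pass at day 8 (2.59, adjusted p = 0.160) or day 15 (1.73, adjusted p = 0.323). Ly6c2 and Cd68 had adjusted p of 0.359 or more in these 3 comparisons.

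Ly6c2, the antigen that defines Ly6C-high monocytes, had 48 counts in the ligated and 23 in the sham libraries of day 8, with a median of 16.4 CPM of total counts in the ligated and 7.52 in the sham libraries (exact permutation p = 0.0909). On the TMM-scaled library size the medians were 20.9 CPM in the ligated and 7.42 CPM in the sham libraries, and the exact permutation p was 0.0368, so the call depended on the scale. At day 15 Ly6c2 had 33 counts in the ligated and 22 in the sham libraries, with 0 in 2 sham libraries and 10 in another, and the p was 0.377. Ly6c2 shares most of its sequence with Ly6c1, which had 30 counts in the ligated and 57 in the sham libraries of day 8, and 51 counts in the ligated and 34 in the sham libraries of day 15, so the division of reads between the genes is uncertain. Cd68, a lysosomal glycoprotein of macrophages, had 38 counts in the ligated and 29 in the sham libraries of day 8 (p = 0.859, exact permutation test), and 21 counts in the ligated and 14 in the sham libraries of day 15 (p = 0.773, exact permutation test).

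Per kilobase of exon, the members' mean levels over 24 libraries were ordered as Lyz2 at 311, Tyrobp at 127 (SD 44.7), Fcer1g at 81.0 (SD 40.8), Ctss at 28.9 (SD 10.8), Itgb2 at 24.3 (SD 24.1), Cd68 at 9.80 (SD 5.19), Ly6c2 at 5.60 (SD 4.97), Csf1r at 4.52 (SD 2.47), Ccr2 at 4.39 (SD 3.07) and Cd14 at 3.56 (SD 6.92) CPM per kilobase. Neighbours in this order differed by less than the larger of their SDs from Ly6c2 downwards, and so did Cd68 and Ly6c2, Itgb2 and Cd68, and Ctss and Itgb2. Lyz2 and Tyrobp, Tyrobp and Fcer1g, and Fcer1g and Ctss differed by more. The order depended on the group. Ccr2 had 6.76 CPM per kilobase in the ligated and 2.19 in the sham libraries of day 8, and 6.88 in the ligated and 1.74 in the sham libraries of day 15, above Csf1r (4.03 and 3.98) in the ligated groups and below it (3.74 and 6.33) in the sham groups. Itgb2 stood above Ctss at day 8 and below it at day 15 in both the ligated and the sham group.

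The ligands of these receptors were low throughout, and none of the 6 in the list (Ccl2, Ccl7, Ccl8, Ccl12, Csf1 and Il34) passed the filter. Ccl2, the main CCR2 ligand, is named here after its values were seen. At day 15 it had 5, 5, 3, 1, 6 and 4 counts in ligated libraries 1 to 6, against 0 counts in each of the 6 sham libraries. At day 8 it had 3 counts in the ligated and 1 in the sham libraries. The day 15 groups did not overlap, and the share of such genes below the filter was not computed. With the sham group set to a floor of 3 counts, the 24 ligated counts gave a 6.23-fold ratio. That ratio leaves out the error of the 24 counts and the spread between libraries, so it is not a lower limit. The two-sided exact permutation p was 0.00216, the smallest that 6 against 6 can give (1 of 12 such tests over the 6 ligands and 2 days). In an edgeR fit without the filter on low counts, the adjusted p of Ccl2 was 0.00242 at day 15 and 0.806 at day 8. Of 18710 genes in that fit, 553 were called higher and 135 lower at day 15, and 263 higher and 35 lower at day 8. The other 5 ligands had permutation p of 0.340 or more on either day, and Csf1, with 18 to 20 counts in every group, had ratios of 0.981 at day 8 and 0.866 at day 15.

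**Figure D3:**
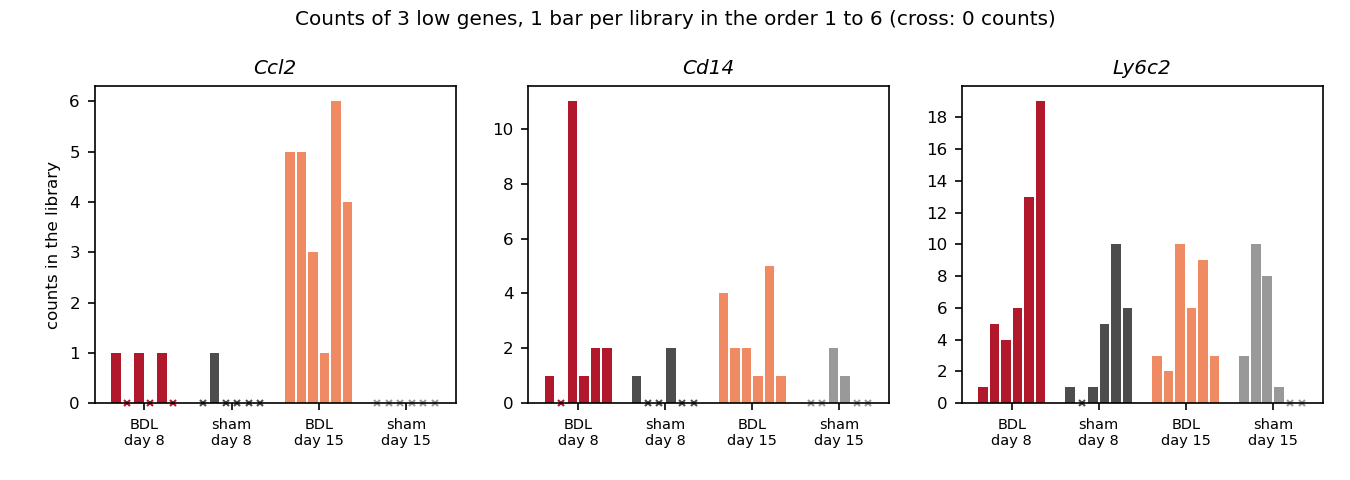
Counts per library (linear axis from 0) of Ccl2, Cd14 and Ly6c2 in the 4 groups, 1 bar per library and a cross where the count was 0. Ccl2 has 1 to 6 counts in each ligated library of day 15 and 0 in each sham library of that day, and a single ligated library of day 8 holds 11 counts of Cd14.

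Between days, Itgb2 was the member that passed the test. Its log2 fold change after ligation, day 15 over day 8, was -2.04 (SE 0.50, adjusted p = 0.0214, edgeR). It was the 1 of 7 members called lower, where 2.09% of all genes tested were, and 0 of 7 were called higher, against 2.26% of all (4.35% in either direction). Fcer1g (-0.99, SE 0.30, adjusted p = 0.0532) and Lyz2 (-0.74, SE 0.31, adjusted p = 0.199) did not pass, although Fcer1g did without any one of ligated libraries 1, 2 and 3 of day 8, and Lyz2 did without library 3 (-0.90, adjusted p = 0.0489). After sham surgery 0 of 7 were called by edgeR, as were 0% of all genes, with 2 members at an unadjusted p under 0.05 (Itgb2 at -1.41, adjusted p = 0.350, and Csf1r at 1.03, adjusted p = 0.353) and 0 called by DESeq2. Ccr2 and Tyrobp had similar means on both days, of 46.5 ± 13.8 CPM at day 15 and 45.7 ± 15.9 CPM at day 8 after ligation for Ccr2 (SD, n = 6 each), and 107 ± 14.2 CPM at day 15 and 105 ± 18.1 CPM at day 8 for Tyrobp.

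The fall of Itgb2 rested on the deeper libraries of day 8. In libraries 4 to 6 of day 8 it averaged 224 CPM after ligation and 148 CPM after sham surgery, and in libraries 1 to 3 it averaged 34.6 CPM after ligation and 40.1 CPM after sham surgery, a ratio of 6.45 in the ligated and 3.69 in the sham group. At day 15 the same ratio was 1.00 in the ligated and 0.933 in the sham group. With only libraries 1 to 3 of day 8 in the model, the difference between days after ligation was 0.07 (adjusted p = 0.989), and with only libraries 4 to 6 it was -2.69 (adjusted p = 2.33e-07). Without ligated library 3 of day 8 it was -2.26 (adjusted p = 0.00108). The call also ended without ligated library 4 or 5 of day 8 or without ligated library 1, 2 or 5 of day 15 (adjusted p of 0.0518 to 0.0761). Fcer1g and Lyz2 had smaller ratios of the same kind at day 8, 1.97 and 1.72 in the ligated and 1.81 and 1.72 in the sham group, while that of Tyrobp was 0.880 in the ligated and 0.834 in the sham group and that of Ccr2 was 1.15 in the ligated and 0.607 in the sham group.

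Platelet markers divided the day 8 libraries in the same place. The summed level of 14 platelet genes, none of them at 0 in any group, was 5436 to 10716 CPM in libraries 4 to 6 and 1552 to 3346 CPM in libraries 1 to 3 after ligation, and 4470 to 9142 CPM in libraries 4 to 6 and 1176 to 2745 CPM in libraries 1 to 3 after sham surgery. At day 15 it was 1421 to 2402 CPM after ligation and 987 to 2894 CPM after sham surgery. At day 15 against day 8 after ligation, 7 of 14 platelet genes fell (12 of 14 without ligated library 3 of day 8), as did Itgal (-1.85, adjusted p = 0.0214, edgeR), the alpha chain of the integrin LFA-1, the integrin activator gene Tln1 (-1.23, adjusted p = 0.0443), Syk (-1.11, adjusted p = 0.0336) and the adaptor gene Lcp2 (-0.76, adjusted p = 0.0467). The part of platelet RNA or of depth in the values of Itgb2, Fcer1g and Lyz2 was not tested.

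**Figure D4:**
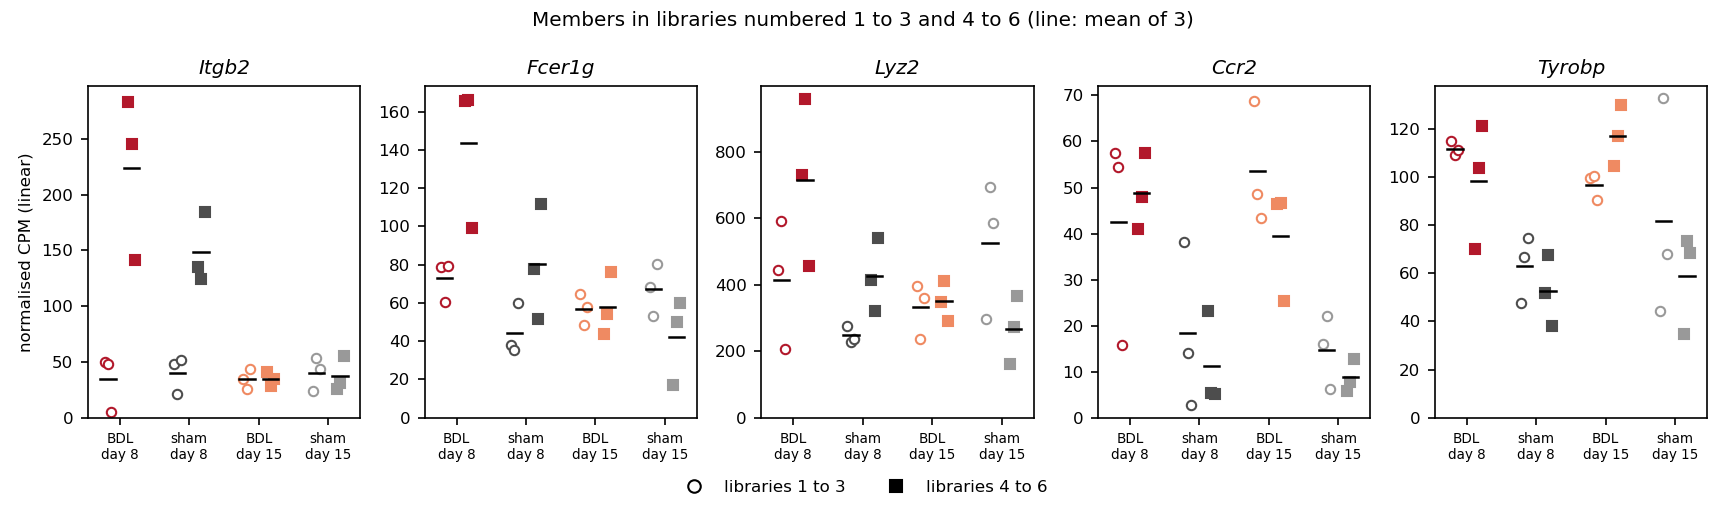
Normalised CPM (linear axis) of Itgb2, Fcer1g, Lyz2, Ccr2 and Tyrobp in libraries numbered 1 to 3 (open circles) and 4 to 6 (filled squares) of each group, with the mean of 3 as a line. Itgb2 separates the 2 sets at day 8, with ratios of 6.45 and 3.69, and not at day 15. The ratios of Ccr2 and Tyrobp lie between 0.593 and 1.21 in the 4 groups.

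The 7 tested members did not vary as a single block across the 24 libraries. Pearson's r of log2 CPM was 0.72 between Fcer1g and Lyz2, 0.70 between Lyz2 and Itgb2 and 0.62 between Fcer1g and Itgb2, and these stayed at 0.67, 0.75 and 0.62 for deviations from the group means. Ccr2 and Tyrobp correlated at 0.59 over all libraries and at 0.04 within groups, so these 2 genes varied together across the groups and hardly among the libraries of a group. Csf1r reached at most 0.09 with any other member over all libraries, and 0.40 with Ccr2 within groups. The points share their group, day and library depth, and r with the total counts was 0.61 for Itgb2, 0.48 for Fcer1g and 0.03 for both Ccr2 and Tyrobp.

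**Figure D5:**
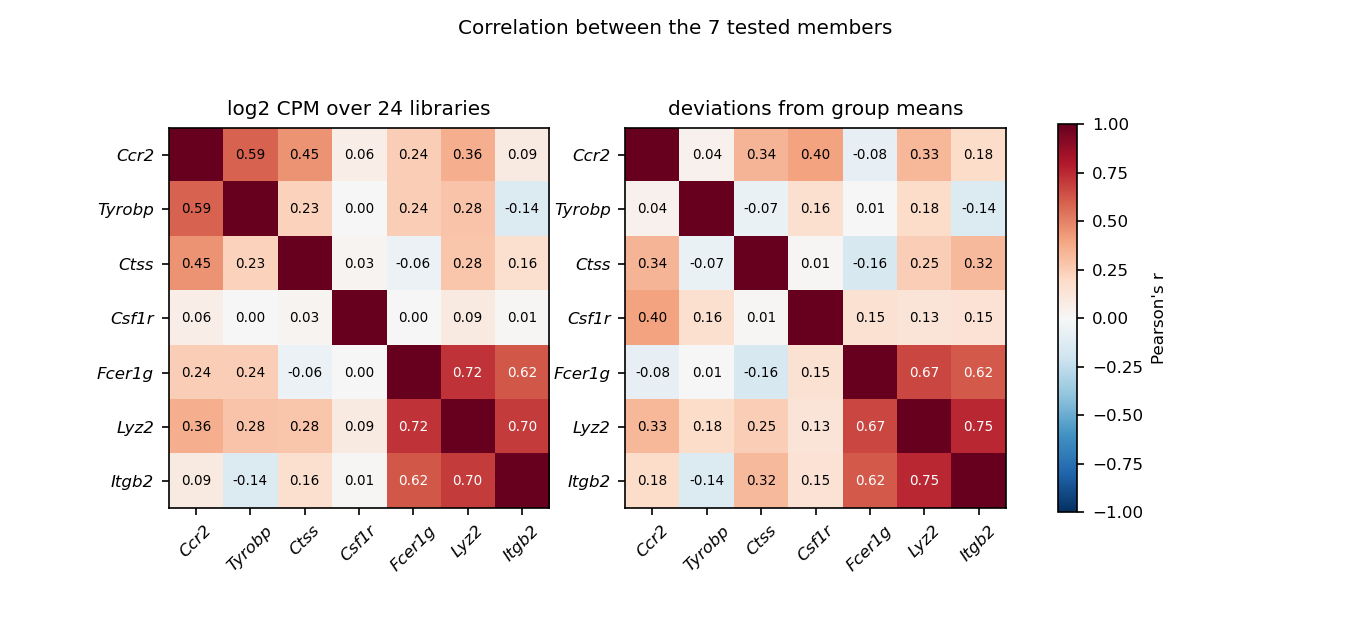
Pearson's r between the 7 tested members over 24 libraries, for log2 CPM (left) and for deviations from the group means (right). Fcer1g, Lyz2 and Itgb2 form a block at 0.62 to 0.75 in both panels, while Ccr2 and Tyrobp correlate at 0.59 on the left and 0.04 on the right.

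The non-member genes whose log2 CPM was most like the mean standardised level of the 7 members were Gm20594 (r = 0.81), Myo1f (0.79), Nfe2 (0.75), Rassf4 (0.74), Ccnd3 (0.72), Actg1 (0.71), March2 (0.71) and Glipr2 (0.70), over 24 libraries. Taken alone, an addition made after the data were seen, Ccr2 was most like Lgals3 (0.84), Tgfbi (0.82) and Hspa8 (0.78), and Itgb2 was most like Cd84 (0.93), Cnn2 (0.91) and Actb (0.91). Tgfbi was also the gene most like Tyrobp, at 0.81. Fcer1g was most like Actn1 (0.84), Ptgs1 (0.80) and Gnas (0.80). Lyz2 was most like Glipr2 (0.83), Adam10 (0.80) and Gp1bb (0.78), the last a gene of the platelet list. Csf1r was most like Hsd17b4 (0.74), and Ctss was most like Ptprc (0.69).

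Other markers of classical monocytes, a list also chosen with earlier results of these data known, rose in part after ligation. Of 18 such genes 14 were tested, and 3 rose at day 8, 2 at day 15 and 4 for the average, with list medians of 0.40, 0.31 and 0.43 against 0.02, -0.02 and 0.00 over all genes, and none fell. S100a4, a calcium-binding protein gene of monocytes and motile cells, rose at day 8 (1.13, SE 0.29, adjusted p = 0.0312, edgeR) and at day 15 (1.43, SE 0.31, adjusted p = 0.00493). It had 57.4, 96.9 and 132 CPM in the ligated and 26.0, 40.2 and 67.6 CPM in the sham libraries at day 8, with slight overlap. Plac8, a gene of classical monocytes and other leukocytes, rose at day 8 (1.04, SE 0.25, adjusted p = 0.0182), where its 222 to 472 CPM in ligated libraries lay above the 95.6 to 206 CPM of sham libraries, as was true of 1.97% of all genes tested. Ifitm6 rose at day 8 (1.62, SE 0.43, adjusted p = 0.0377) and Fn1, which hepatocytes also express, at day 15 (1.56, SE 0.36, adjusted p = 0.00842). Without ligated library 3, S100a4 (1.18, adjusted p = 0.0364) and Plac8 (1.10, adjusted p = 0.0195) passed at day 8, and Ifitm6 did not (1.61, adjusted p = 0.0518).

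Markers of non-classical monocytes had 5 of 10 genes tested, of which Cd36, a scavenger receptor also found on platelets, rose for the average (0.64, SE 0.18, adjusted p = 0.0235, edgeR), with medians of 0.27 at day 8, -0.09 at day 15 and -0.01 averaged. Of 12 Kupffer cell markers 1 was tested, the iron exporter gene Slc40a1 (0.84 at day 8 and 0.71 at day 15), which did not pass. The summed level of the 12 was 113 to 206 CPM in the ligated and 42.7 to 115 CPM in the sham libraries at day 8, and 90.0 to 252 CPM in the ligated and 52.1 to 235 CPM in the sham libraries at day 15. Of the defining genes, named after their values were seen, Clec4f had 0 counts in the ligated and 2 in the sham libraries of day 8, and 6 counts in the ligated and 7 in the sham libraries of day 15, and Timd4 had 1 to 2 counts in every group. Cd5l had 20 counts in the ligated and 6 in the sham libraries of day 8, and 22 counts in the ligated and 5 in the sham libraries of day 15. Marco had 7 counts in the ligated and 1 in the sham libraries of day 8, and 18 counts in the ligated and 0 in the sham libraries of day 15. Vsig4 had 4 counts in the ligated and 3 in the sham libraries of day 8, and 8 counts in the ligated and 0 in the sham libraries of day 15. These counts are not scaled to library size, and totals at day 15 averaged 368233 in the ligated and 248350 in the sham libraries. The sum over all 12 markers averaged 140 CPM in the ligated and 85.6 CPM in the sham libraries at day 8. At day 15 it averaged 139 CPM and 134 CPM, so the genes named do not stand for the whole list. These low genes were not tested, and their part in the values of the 10 genes was not tested. Of 7 genes of the lipopolysaccharide receptor complex that holds CD14, Myd88 alone was tested and did not pass (0.41 at day 8 and 0.24 at day 15).

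Markers of other cells moved with ligation as well. Of 10 tested genes on the neutrophil list, none passed at day 15 (median -0.13) and 3 rose at day 8 (median 1.89). These 3 were Lcn2 (2.99, adjusted p = 0.0177, edgeR), Retnlg (1.54, adjusted p = 0.0322) and Chil3 (2.41, adjusted p = 0.0474). Whether their RNA came from neutrophils or from other cells was not tested. The same 3 passed at day 8 without ligated library 3, with adjusted p of 0.0322 to 0.0478. The summed level of 15 neutrophil genes was 841 to 2358 CPM in the ligated and 145 to 1434 CPM in the sham libraries at day 8, and 681 to 2179 CPM in the ligated and 130 to 4837 CPM in the sham libraries at day 15. Lyz2, Tyrobp, Fcer1g and Itgb2 are also expressed by neutrophils. The neutrophil sums of the ligated and sham groups overlapped on both days. Their medians were 1552 CPM in the ligated and 422 CPM in the sham libraries at day 8. At day 15 the medians were 1456 CPM in the ligated and 1014 CPM in the sham libraries. The log2 fold change was above 0 for 10 of 10 tested neutrophil genes at day 8 and for 5 of 10 at day 15. Of 15 tested hepatocyte genes 13 rose at day 8 and 15 at day 15 (medians 4.12 and 7.21), and of 12 red cell genes 8 rose at day 8 and none passed at day 15 (medians 1.15 and 0.05). Leaving out ligated library 3, 9 of 17 tested hepatocyte genes and 5 of 12 red cell genes rose at day 8. Of 5 tested B cell genes, Cd79a (-1.18, adjusted p = 0.0159) and 3 others fell for the average of both days (median -1.01), as did 1 of 3 T and NK cell genes, Cd2 (-1.39), and 1 of 6 endothelial genes, Kdr (-0.64). None of 14 platelet genes passed for ligation on either day (medians 0.47 and 0.36). The part of these other cells in the values of the 10 genes was not tested.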

How the data were processed

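Plasma vesicle RNA was measured in 24 libraries, 6 in each of 4 groups taken from the sample titles. The deposited table holds expected counts for 21960 genes, all whole numbers. Per the submitters' processing notes the authors used STAR and RSEM, of which no source used here gives a version. The notes name a human build, hg38, while the gene identifiers belong to mouse, so the alignment build was not established, and coordinates printed come from GENCODE M21 by identifier. Per the labels' protocols, libraries came from a stranded kit without ribosomal depletion or poly(A) selection and were amplified by PCR, with no molecular identifiers named. The exact interval on a ratio of counts covers counting error only, whereas edgeR SEs and intervals include the spread between libraries.

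Counts were filtered (filterByExpr, minimum count 10, minimum total 15), normalised by TMM and fitted in edgeR 4.0.16 (its quasi-likelihood test, 1 mean per group, 24 libraries, no covariate, Benjamini-Hochberg over 4112 genes, threshold 0.05). The test was checked on simulated data. Members below the filter were tested by exact permutation of log2 CPM of total counts, not TMM-scaled, with a pseudocount of 1 (924 arrangements, scipy). Named genes were all 10 members, up to 3 called genes of each further list and comparison by smallest p, and the 8 genes most like the members. The members and lists were chosen with earlier results of these data known. Every pair of libraries of a group differed beyond sampling noise (the lowest chi-square over its degrees of freedom was 1.66). At day 8, same-numbered ligated and sham libraries correlated in their deviations from the group means by 0.165 to 0.327 (6 of 6 over 0.1). At day 15 the values were -0.031 to 0.113 (1 of 6 over 0.1). A ligated library was most like the sham library of its own number for 3 of 6 at day 8 and 1 of 6 at day 15. The labels give no pairing, and a pairing by number was not established.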

Additional observations from a re-analysis of the deposited data

Results flagged for a closer look

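Of 40 combinations of member and group, 5 held a library far from the other 5 of its group, by a gap of more than 0.625 of the group's range. That cut-off flags about 1 in 20 groups by chance where values follow a normal distribution. Low counts do not, so the rate to be found here by chance was not established. Tyrobp in ligated library 4 of day 8 was low, at 69.9 normalised CPM against 104 to 121 CPM in the other ligated libraries. Cd14 in ligated library 3 of day 8 was high, at 58.1 CPM from 11 counts, against 0 to 7.18 CPM in the others, and this is the library with the low share of Lars2. The other 3 rest on 1 to 3 counts each. Cd14 in sham library 1 of day 8 had 9.56 CPM against 0 to 2.88 CPM, Cd14 in sham library 3 of day 15 had 12.4 CPM against 0 to 2.89 CPM, and Cd68 in sham library 1 of day 8 had 28.7 CPM against 8.89 to 11.4 CPM.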

How the results depend on the processing

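Ccr2 kept its direction in every alternative for both days and for the average, and its call in every refit without 1 library. It was not tested at all under the stricter filter, nor in a fit of the day 15 libraries alone, where its counts were too low. The number of members called higher at day 8 was 1 in place of 2 under RLE scaling, total counts, removal of Lars2 and hemoglobin genes, no filter, the stricter filter and a fit of the compared groups alone, 0 within libraries 1 to 3 or 4 to 6, and 1 to 2 without 1 library. At day 15 it was 0 under the stricter filter and in the fit of the compared groups, and 1 to 2 without 1 library. For the average it was 1 under the stricter filter and with libraries 1 to 3 of day 8, 3 without a filter (Cd14 in addition), and 2 in every refit without 1 library. Between days after ligation it was 3 without a filter and with libraries 4 to 6 of day 8, 2 in the fit of the compared groups and with the set of library numbers (1 to 3 or 4 to 6) as a covariate, 0 with libraries 1 to 3, and 0 to 3 without 1 library. After sham surgery it was 1 without a filter and with libraries 4 to 6. Of 6 permutation tests of low members 1 was under 0.05, against 0 with a pseudocount of 5, 2 on the TMM-scaled library size, and 0 to 2 without 1 library (added after seeing the data).

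Small values changed sign. With total counts Fcer1g at day 15 was -0.10 and Itgb2 averaged -0.016. With libraries 1 to 3 of day 8, Csf1r (-0.61) and Itgb2 (-0.28) at day 8, Itgb2 averaged (-0.21) and Itgb2 between days after ligation (0.067) changed sign, and with libraries 4 to 6 Csf1r averaged (0.14) and the Ccr2 difference between days (-0.10) did. Without 1 library the ranges were -0.00076 to 0.32 for Itgb2 averaged, -0.17 to 0.0081 for Csf1r averaged, -0.39 to 0.029 for Lyz2 at day 15, -0.12 to 0.23 for Fcer1g at day 15, -0.46 to 0.28 for the Ccr2 difference between days, and -0.051 to 0.30 at day 8 and -0.30 to 0.52 at day 15 for Cd68 (the last on the log2 of CPM plus pseudocount). The cause of these changes was not tested. With the replicate number as a block within day, the counts were 2 at day 8, 1 at day 15, 2 for the average and 0 for the difference between days, so the block changed no call of a member. Over all genes it gave 169 higher and 33 lower at day 8, 173 and 71 at day 15 and 345 and 191 for the average, more than the 114 and 15, 143 and 44, and 292 and 144 without it, and this block could not be fitted for comparisons between days. Depth limits the low members: a sham group's Ccr2 rested on 17 counts at day 15.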
